A study of Mus musculus with 18 samples.

Results

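Chemokine receptors of monocytes and macrophages were followed through 7 genes, Ccr1, Ccr2, Ccr3, Cxcr4, Cx3cr1, Ackr3 and Ccrl2. They were picked by symbol, and each was read from 1 RefSeq transcript, the one with the highest summed level. They are 7 of 26165 genes counted in cultured macrophages and of 26149 counted in wound cells. The 18 mouse RNA sequencing libraries carried PPARg T166A, a form of this nuclear receptor in which alanine stands in the place of a threonine, or wild-type (WT) PPARg. Skin wound cells were taken at day 6 after injury by digesting dorsal skin and binding cells to beads against F4/80, and gave 6 T166A and 6 WT libraries. Bone marrow-derived macrophages (BMDM), grown for 7 days with M-CSF at 50 ng/ml from marrow of PPARg T166A or C57BL/6J mice, gave 3 T166A and 3 WT libraries. The labels put BMDM replicates 1 and 2 of either genotype in a batch named B1 and replicate 3 in one named B2, and give skin libraries no batch. The labels give no age or sex and do not clearly state that replicates came from separate animals or cultures, so p-values measure the spread between these samples. No promoter or Cre driver is named for the T166A change, which was carried by the mice, and counts per gene cannot show it.

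Chemokines are small secreted proteins, and most of their receptors cross the membrane several times and signal through inhibitory G proteins to direct cell movement. Ccr2 with its ligands Ccl2, Ccl7 and Ccl12 brings classical monocytes out of the marrow and into wounds, Cx3cr1 with its ligand Cx3cl1 marks patrolling monocytes and many resident macrophages, and Ccr1 answers to inflammatory chemokines such as Ccl3 and Ccl5. Ccr3 is best known from eosinophils and their ligand Ccl11, and Cxcr4 with Cxcl12 holds cells in the marrow and is found on many cell types. Ackr3 and Ccrl2 are atypical receptors: Ackr3 binds and clears Cxcl12 and Cxcl11 and is common on vessel walls, and Ccrl2 binds chemerin without known G protein signalling.

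The coding stretch below is shown because it sets Ccrl2 apart from the other receptors of the set. It begins at the end of the third membrane-spanning segment, where typical chemokine receptors carry the DRY motif used in G protein coupling. Sequences are coding exon sequence of GENCODE transcripts on GRCm38, read 5′ to 3′ on the gene's strand, found by aligning the translated coding sequence with that of Ccr1, and the capitals mark the 3 codons at the DRY position.
Ccr1, chr9:123964084-123964104, minus strand: GACAGATACctggccattgtc
Ccr2, chr9:124106132-124106152, plus strand: GATAGGTACttggctattgtt
Ccr3, chr9:124029029-124029049, plus strand: GACAGATACctggctatcgtc
Cx3cr1, chr9:120051936-120051956, minus strand: GACCGGTACcttgccatcgtc
Cxcr4, chr1:128589500-128589520, minus strand: GACCGGTACctcgctattgtc
Ackr3, chr1:90214241-90214261, plus strand: GACCGCTATctctccatcacc
Ccrl2, chr9:111056015-111056035, minus strand: CAAGGATACagggtgttttcc
Over these 7 codons, Ccr2, Ccr3, Cxcr4 and Cx3cr1 encoded the same 7 residues as Ccr1. Ackr3, though an atypical receptor, kept the DRY residues and matched Ccr1 in 5 of the 7. Ccrl2 matched Ccr1 in 1. Over the aligned protein, Ccr3 was the nearest to Ccr1 with 61.6% identical residues, then Ccr2 with 54.9%, Cx3cr1 with 40.4%, Ccrl2 with 35.4%, Cxcr4 with 30.6% and Ackr3 with 26.6%.

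Ccr1, Ccr3 and Ccr2 lie in a cluster of related receptor genes on chromosome 9 of GRCm38.p6, from position 123962126 to 124109140 for these 3, with Ccr1l1 between Ccr1 and Ccr3. Reads that match more than 1 of these relatives may have been split or dropped in counting, so their values carry that uncertainty. Ccr1l1, the closest neighbour of Ccr1, was read at 0.572 ± 0.192 CPM in T166A wound cells and 0.425 ± 0.174 CPM in WT wound cells (SD, n = 6 each). CPM is the count scaled to a common total of counts assigned to genes, and RPKM, used here to compare genes, is CPM per kilobase of the counted transcript. The skin libraries held 29357354 to 38774475 gene counts and the BMDM libraries 40072513 to 44152639.

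Wound cells carried the macrophage markers of their label together with RNA of other cells. All 11 macrophage markers were measured, and their summed level was 10397 to 11446 CPM in T166A and 11501 to 13717 CPM in WT. The same libraries held fibroblast markers (6104 to 11411 CPM in T166A, 6959 to 10363 CPM in WT), endothelial cell markers (1514 to 2179 CPM in T166A, 1028 to 1440 CPM in WT) and monocyte markers (10120 to 11122 CPM in T166A, 9508 to 12876 CPM in WT). Most of the monocyte sum was Thbs1, which other cells also make, at a mean of 9692 CPM in T166A and 9654 CPM in WT. Eosinophil markers stayed at 5.3 to 8.29 CPM in T166A and 7.25 to 10.1 CPM in WT. BMDM held 36254 to 48027 CPM of macrophage markers in T166A and 39644 to 50805 CPM in WT. The T166A BMDM replicate 3 stood apart with 432.9 CPM of fibroblast markers, against 9.33 and 11.6 CPM in the other T166A cultures and 4.87 to 48.2 CPM in WT. Collagen genes made up most of that sum, and in T166A BMDM Col1a1 reached 250.8 CPM and Col3a1 105.8 CPM. The fibroblast markers Dcn and Lum did not exceed 0.639 and 0.0458 CPM in any T166A culture. In bulk libraries of this kind, fewer cells of a type and less RNA per cell cannot be told apart.

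In wound cells, 5 of the 7 receptors differed by genotype: Ccr1, Ccrl2, Ccr2 and Cx3cr1 fell in T166A and Ackr3 rose, while Ccr3 and Cxcr4 did not pass the test. A gene is called where its adjusted p is under 0.05 in the quasi-likelihood test of edgeR, with Benjamini-Hochberg adjustment over the 15473 genes tested. Genotype differences were common in this tissue: 25.9% of all genes tested were called, 12.7% higher and 13.2% lower, and the log2 fold changes of these genes had a median size of 0.37. The log2 fold changes of the 4 receptors that fell lay between -0.54 and -0.38, and that of Ackr3 was 0.59. With library totals alone in place of TMM scaling, 3357 genes were called higher and 1308 lower, against 1963 higher and 2048 lower with TMM. Under that scaling Ccr1, Ccrl2, Ccr2 and Ackr3 kept their calls, and Cx3cr1 lost its call.

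**Figure D1:**
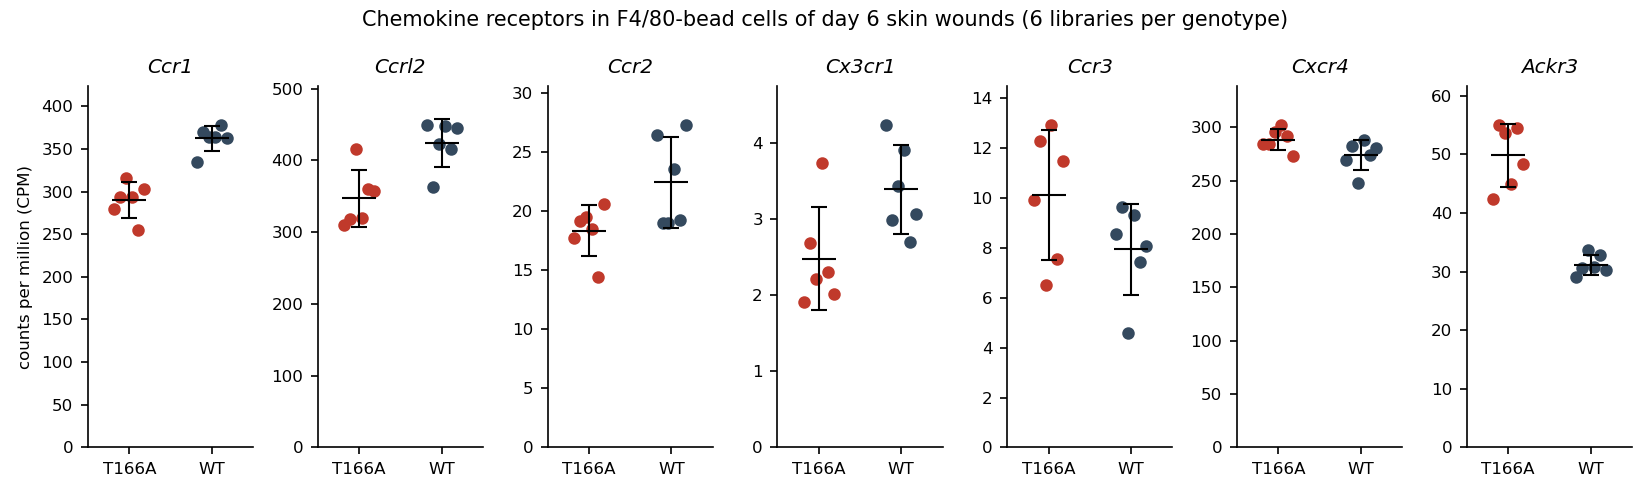
CPM of the 7 receptors in each skin wound library, T166A left and WT right, on a linear axis per gene; points are libraries (6 per genotype), the short line is the mean and the bar its SD. The genotypes do not overlap for Ccr1, where all 6 T166A libraries lie lower, or for Ackr3, where all 6 lie higher.

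Ccr1, a receptor for inflammatory chemokines, ranged from 255 to 316 CPM in T166A wound cells (median 293) and from 335 to 378 CPM in WT (median 363.5). All 6 T166A libraries lay below the lowest WT library, a separation in this direction that 4.08% of all genes tested showed. The log2 fold change was -0.41 (SE 0.05, adjusted p = 3.73e-06, edgeR). It kept its call when any 1 library was left out and in each of the 16 other settings tried, from -0.50 to -0.32.

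Ccrl2, the chemerin-binding receptor that presents this ligand to neighbouring cells, ranged from 310 to 415 CPM in T166A (median 338) and from 362.5 to 449.6 CPM in WT (median 434). A single T166A library, replicate 3, reached into the WT range, and the other 5 lay below it. T166A over WT, this was a log2 fold change of -0.38 (SE 0.08, adjusted p = 0.0014, edgeR).

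Ccr2, the receptor of classical monocytes, ranged from 14.4 to 20.6 CPM in T166A (median 18.9) and from 19.0 to 27.3 CPM in WT (median 21.4). The groups overlapped: 3 of the 6 T166A libraries lay below all WT libraries, and the WT libraries fell into 3 at 19.0 to 19.3 CPM and 3 at 23.55 to 27.3 CPM. Its log2 fold change was -0.38 (SE 0.11, adjusted p = 0.0161, edgeR).

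Cx3cr1, the fractalkine receptor, was the least abundant of the 7 in wound cells. It had 68 to 134 counts per T166A library (1.91 to 3.74 CPM, median 2.26) and 95 to 146 per WT library (2.71 to 4.24 CPM, median 3.25). Of the T166A libraries 5 lay below the lowest WT library, and replicate 4 lay among the WT values. Cx3cr1 had a log2 fold change of -0.54 (SE 0.18, adjusted p = 0.0297, edgeR). This call was lost when any 1 of 6 libraries was left out: T166A replicates 1, 3, 5 and 6 and WT replicates 1 and 4. The highest adjusted p of those fits was 0.0861, without WT replicate 1, and with library totals alone it was 0.0623.

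Ackr3, the scavenger of Cxcl12, ranged from 42.4 to 55.1 CPM in T166A wound cells (median 51.0) and from 29.0 to 33.6 CPM in WT (median 30.8). All 6 T166A libraries lay above all WT libraries, as for 8.83% of all genes tested. Ackr3 had a log2 fold change of 0.59 (SE 0.07, adjusted p = 1.45e-06, edgeR), larger in size than that of 77% of the genes called.

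Ccr3, the eosinophil receptor, ranged from 6.52 to 12.9 CPM in T166A (median 10.7) and from 4.60 to 9.65 CPM in WT (median 8.31). Although 4 T166A libraries lay above all WT libraries, both groups varied widely, and the log2 fold change of 0.26 (95% interval -0.16 to 0.68, adjusted p = 0.348, edgeR) did not pass. The eosinophil marker Siglecf averaged 1.97 ± 0.604 CPM in T166A and 1.67 ± 0.696 CPM in WT (SD, n = 6 each), the granule genes Epx and Prg3 lay under 0.2 CPM in every library, and of the 5 eosinophil markers tested Prg2 was called higher (0.53) and Ear2 lower (-1.12).

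Cxcr4, the Cxcl12 receptor, varied least of the 7 between T166A wound libraries, with a coefficient of variation of 3.51%, against 5.21% in WT. It ranged from 274 to 302.5 CPM in T166A (median 288) and from 248 to 289 CPM in WT (median 277), and the groups overlapped. The log2 fold change was -0.01 (95% interval -0.12 to 0.10, adjusted p = 0.89, edgeR), and its sign depended on the scaling, with 0.08 (adjusted p = 0.235, edgeR) under library totals alone. Since Ackr3 and Cxcr4 share the ligand Cxcl12, their ratio was read in each library. Per transcript length, Ackr3 stood at 0.102 ± 0.0115 of Cxcr4 in T166A wound cells and at 0.0673 ± 0.00669 in WT (SD, n = 6 each), with a range of 0.0874 to 0.114 in T166A and 0.063 to 0.0797 in WT.

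Cell type markers moved with the genotype in the same libraries, where 12.7% of all genes tested were called higher and 13.2% lower. Of 11 macrophage markers 9 fell and 0 rose (median log2 fold change -0.32, against 0.01 for all genes), among them Adgre1, which encodes F4/80, at -0.36 (SE 0.06, adjusted p = 7.99e-05, edgeR). Of 8 endothelial markers 6 rose and 0 fell (median 0.47), among them the vessel protein Emcn at 0.83 (SE 0.09, adjusted p = 4.42e-06, edgeR). All 5 adipocyte markers tested rose, 0 of 8 fibroblast markers were called, and of 10 monocyte markers 1 rose and 1 fell. The one that rose was Hp, which encodes the plasma protein haptoglobin and is also made by adipocytes, with 86.1 ± 7.10 CPM in T166A and 19.9 ± 1.70 CPM in WT (SD, n = 6 each; log2 fold change 2.03, adjusted p = 6.14e-15, edgeR), and the one that fell was F13a1 (-0.27, adjusted p = 0.0039, edgeR). The classical monocyte marker Ly6c2 stood at -0.02 (adjusted p = 0.92, edgeR). Nonclassical monocytes are known for high Cx3cr1, and of their 7 markers 4 fell and 1, Ace (0.36, adjusted p = 0.000261, edgeR), rose (median -0.41). The summed level of these 7 overlapped between genotypes, at 292 to 379 CPM in T166A and 322 to 397 CPM in WT. Of the remaining lists, neutrophil markers fell in 5 of 7 and mast cell markers in 3 of 8, with 1 mast cell marker, Kit, higher. For T and NK cells 0 of 2 markers tested and for keratinocytes 0 of 6 were called, for B cells 1 of 3 fell, and for dendritic and Langerhans cells 1 of 9 rose and 1 fell.

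**Figure D2:**
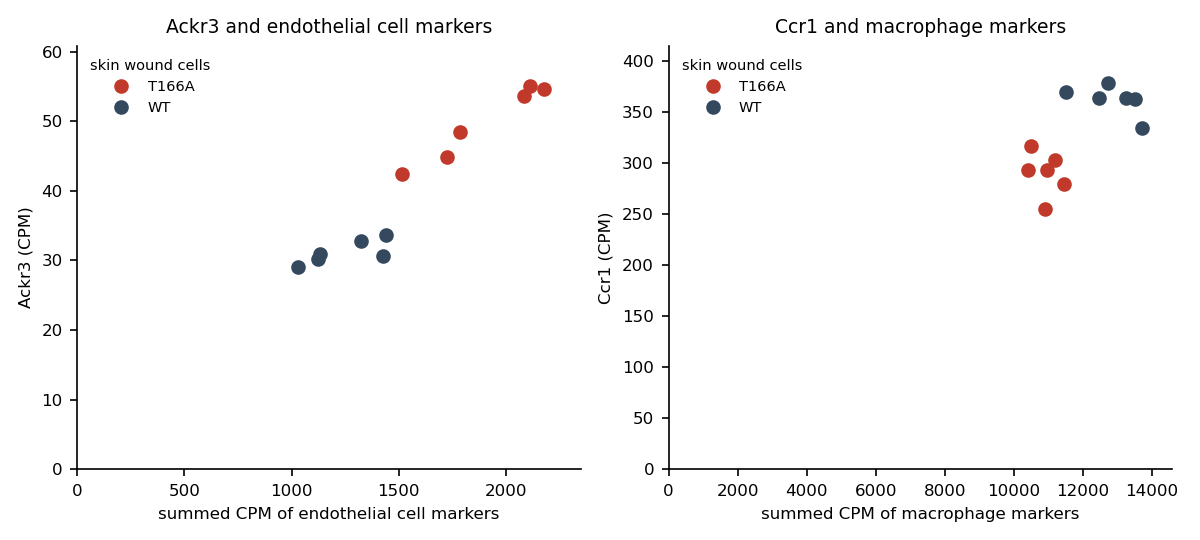
Left, Ackr3 (CPM) against the summed CPM of 8 endothelial cell markers; right, Ccr1 (CPM) against the summed CPM of 11 macrophage markers; each point is 1 skin wound library, T166A and WT in separate colours, all axes linear and starting at 0. T166A libraries lie higher on both axes on the left and lower in Ccr1 on the right, where the lowest WT marker sum is 11501 CPM and the highest T166A sum 11446 CPM.

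The receptor values were also read with marker scores as covariates. Of these scores, 3 tracked the genotype closely (correlation with genotype across the 12 libraries 0.844 for endothelial, -0.851 for macrophage and 0.913 for monocyte markers). Fits with them leave little of the genotype contrast to estimate. The correlation was weaker for fibroblast (-0.116), eosinophil (-0.122) and mast cell (-0.546) scores. Each score is the mean log2 CPM of its list, and in the monocyte score the genotype difference was mainly that of Hp. Ccr1 kept its call with the endothelial score (log2 fold change -0.42, adjusted p = 0.00662, edgeR), with fibroblast and endothelial scores together (-0.35, adjusted p = 0.0205, edgeR) and with the macrophage score (-0.43, adjusted p = 0.00683, edgeR). Ackr3 had 0.29 with the endothelial score (adjusted p = 0.112, edgeR), 0.43 with the macrophage score (adjusted p = 0.0547, edgeR) and 0.38 with fibroblast and endothelial scores (adjusted p = 0.0455, edgeR). Ccr2 turned positive with the endothelial score (0.07, adjusted p = 0.881, edgeR), and Ccrl2 had -0.36 (adjusted p = 0.216, edgeR) and Cx3cr1 -0.30 (adjusted p = 0.695, edgeR) in that fit. With the monocyte score the differences of Ackr3 and Ccr2 were larger and kept their calls, at 0.95 for Ackr3 (adjusted p = 0.000252, edgeR) and -0.87 for Ccr2 (adjusted p = 0.0283, edgeR), while Cx3cr1 had -0.82 (adjusted p = 0.306, edgeR) and Ccrl2 -0.34 (adjusted p = 0.345, edgeR). With eosinophil and mast cell scores together, Ackr3 (0.64, adjusted p = 1.63e-05), Ccr2 (-0.46, adjusted p = 0.023) and Ccrl2 (-0.35, adjusted p = 0.0139) kept their calls and Cx3cr1 did not (-0.59, adjusted p = 0.063, all edgeR). Because the endothelial, macrophage and monocyte scores track the genotype, fits with them cannot tell cell makeup and genotype apart for any receptor, Ccr1 included. The eosinophil and mast cell scores stand for those cell types alone. The part of the cell makeup in the calls of Ccr1, Ackr3, Ccrl2, Ccr2 and Cx3cr1 was not tested further.

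Each receptor was set beside the genes whose level across the 12 skin libraries followed it most closely (Pearson r of log2 CPM, as a description, over 10217 genes of at least 5 CPM). The genotype shift is part of each r, and r within T166A and within WT (6 libraries each) is given after it for the first gene. Ackr3 went with Pald1 (r = 0.982; 0.92 within T166A and 0.74 within WT), Emcn and Synpo. Ccrl2 went with the chemokine genes Ccl2 (r = 0.958; 0.99 within T166A and 0.80 within WT) and Ccl3 (r = 0.947), then with Cyp27a1. Ccr2 went with the leukocyte actin-bundling gene Lcp1 (r = 0.950; 0.89 within T166A and 0.97 within WT), Rab8b and Nceh1. Ccr1 went with Rars (r = 0.978; 0.94 within T166A and 0.73 within WT), Flrt3 and Rybp. The nearest genes were Pou2f2 for Cx3cr1 (r = 0.871; 0.80 within T166A and 0.85 within WT), Fzr1 for Cxcr4 (r = 0.923; 0.86 within T166A and 0.94 within WT) and Pcsk5 for Ccr3 (r = 0.931; 0.94 within T166A and 0.93 within WT).

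In BMDM, no receptor passed the test by genotype. Of the 7, 6 had enough counts to be tested and 0 were called by edgeR. At an unadjusted p under 0.05 there were 2, Ccr1 and Ccr2, beside 1687 of all 13139 genes tested. Calls by edgeR were rare in this comparison, with 0.0685% of 13139 genes, 0.0609% higher and 0.00761% lower. DESeq2 called 1 receptor, Ccr1 (adjusted p = 0.0174), and limma-voom called 0.

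**Figure D3:**
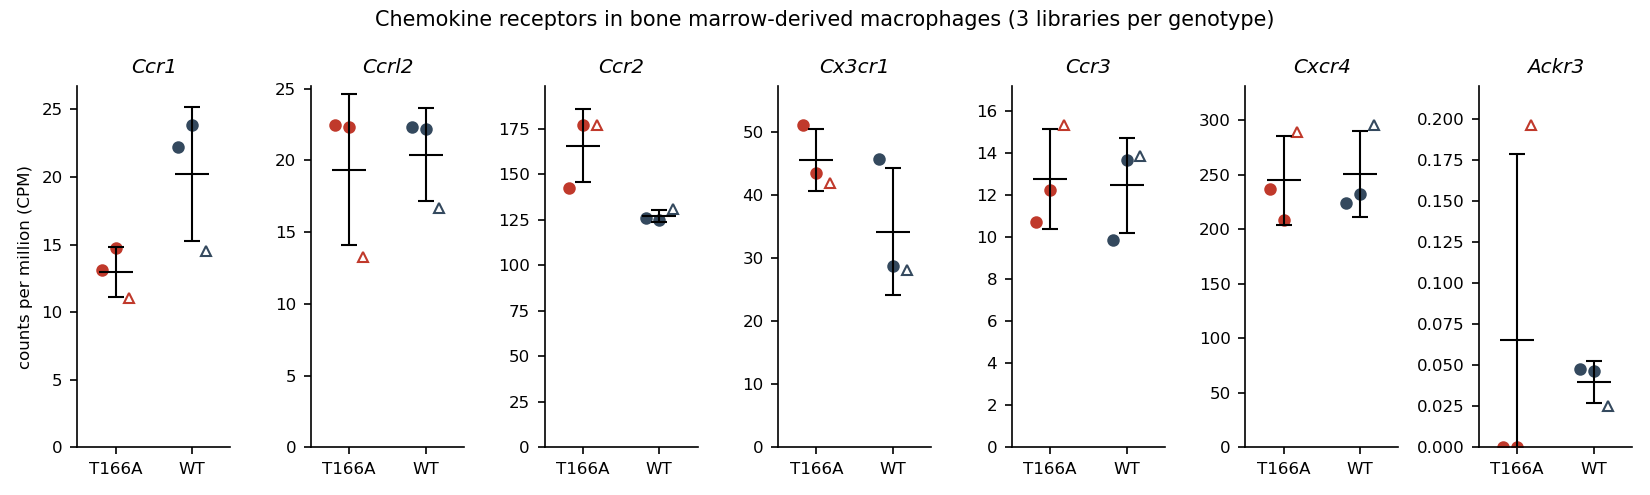
CPM of the 7 receptors in each BMDM library, T166A left and WT right, on a linear axis per gene; filled circles are batch B1, open triangles batch B2, the short line is the mean and the bar its SD (n = 3 each). The genotypes are apart for Ccr2 alone, where the T166A cultures lie higher.

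Ccr1 in BMDM was read at 13.1, 14.7 and 11.03 CPM in T166A and at 22.2, 23.9 and 14.6 CPM in WT. Both B1 cultures of T166A lay below both B1 cultures of WT, and the B2 cultures were lower in both genotypes, which left an overlap between groups. The log2 fold change was -0.65 (SE 0.16, adjusted p = 0.198, edgeR). Within batches it was -0.73 in B1 (2 against 2) and -0.40 in B2 (1 against 1).

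Ccr2 was read at 142.5, 177 and 177 CPM in T166A BMDM and at 126, 125 and 131 CPM in WT. The 3 T166A cultures lay above the 3 WT cultures, as did 7.99% of all genes tested. Ccr2 had a log2 fold change of 0.35 (SE 0.13, adjusted p = 0.323, edgeR), with 0.35 in B1 and 0.43 in B2. Among 10 monocyte markers in BMDM, 1 was called higher in T166A and 0 lower: Ms4a4c averaged 111 ± 41.9 CPM in T166A and 47.0 ± 14.7 CPM in WT (SD, n = 3 each; log2 fold change 1.19, adjusted p = 0.0331, edgeR). The median log2 fold change of the 10 markers was 0.0009, against -0.0227 for all genes. Their summed level, which includes Ms4a4c, was 379.7 to 397 CPM in T166A and 264 to 396.5 CPM in WT. The part of these markers in the Ccr2 values was not tested.

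Cx3cr1 was read at 51.1, 43.5 and 42.0 CPM in T166A BMDM and at 45.8, 28.8 and 28.1 CPM in WT. WT replicate 1 lay within the T166A range and the other WT cultures below it. Cx3cr1 had a log2 fold change of 0.39 (SE 0.18, adjusted p = 0.399, edgeR), with 0.34 in B1 and 0.58 in B2.

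The remaining receptors of BMDM showed smaller differences. Cxcr4 averaged 245 ± 40.9 CPM in T166A and 251 ± 39.4 CPM in WT (SD, n = 3 each). Ccr3 averaged 12.8 ± 2.36 CPM in T166A and 12.5 ± 2.26 CPM in WT, and Ccrl2 19.4 ± 5.26 CPM in T166A and 20.4 ± 3.22 CPM in WT. Their 95% intervals of the log2 fold change reached from -0.44 to 0.31 for Cxcr4, from -0.64 to 0.62 for Ccr3 and from -0.64 to 0.37 for Ccrl2, so differences of that size were not excluded by these libraries. Ackr3 had 0, 0 and 8 counts in the T166A cultures and 2, 2 and 1 in the WT cultures. The 8 counts came from T166A replicate 3, whose fibroblast marker sum was high through collagen RNA. The source of that RNA and of the Ackr3 counts was not tested. Without that library, Ccr1 had -0.72 (adjusted p = 0.138, edgeR) and Ccr2 0.35 (adjusted p = 0.281, edgeR), and 0 receptors were called.

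**Figure D4:**
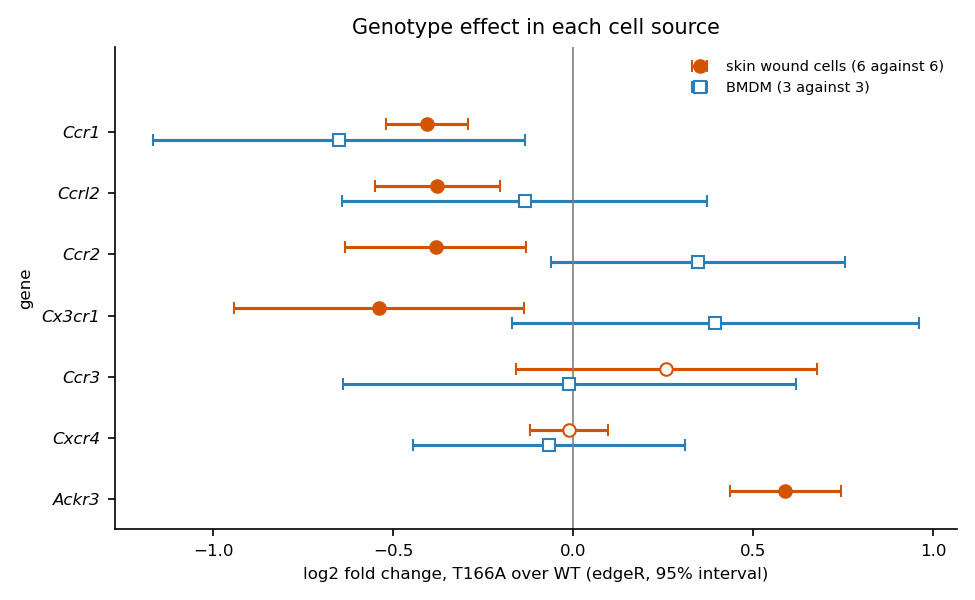
Log2 fold change, T166A over WT, of each receptor in skin wound cells (circles, 6 against 6 libraries) and BMDM (squares, 3 against 3), with 95% intervals; filled symbols passed the adjusted threshold of 0.05 in edgeR, and Ackr3 was too low to test in BMDM. Ccr2 and Cx3cr1 lie left of 0 in skin and right of 0 in BMDM.

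The genotype effect of Ccr2 and Cx3cr1 differed between the sources, and the difference was tested in a fit over all 18 libraries. The effect in skin minus that in BMDM was -0.69 for Ccr2 (SE 0.18, adjusted p = 0.0164, edgeR) and -0.90 for Cx3cr1 (SE 0.26, adjusted p = 0.025, edgeR). Both were lower in T166A in skin and higher in T166A in BMDM, where the effect by itself did not pass the test. Of all 16586 genes in this fit 14.3% differed in this way, 6.1% with the higher effect in skin and 8.17% with the lower one. The Ccr2 call was lost without BMDM T166A replicate 2 (adjusted p = 0.0562, edgeR). The Cx3cr1 call was lost without BMDM T166A replicate 1 (adjusted p = 0.0584, edgeR) and without BMDM WT replicate 2 (adjusted p = 0.0614, edgeR). For Ccr1, which was lower in T166A in both sources, the difference of 0.28 missed the threshold (SE 0.11, adjusted p = 0.0873, edgeR). It passed without either BMDM replicate 3 (0.39, adjusted p = 0.026 without the T166A one, edgeR). In both fits the batch term takes up the B2 library that remains, so both rest on the same B1 cultures. For Cxcr4 (0.09), Ccr3 (0.31) and Ccrl2 (-0.21) the adjusted p of the difference lay at 0.366 or higher (edgeR).

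The level of 4 receptors, Ccr1, Ccrl2, Ccr2 and Cx3cr1, differed between the sources by more than between the genotypes. Source is confounded with culture, isolation, sequencing and the cells present, which cannot be told apart. Skin over BMDM, the log2 fold change was 4.42 in T166A and 4.13 in WT for Ccr1, and 4.13 in T166A and 4.33 in WT for Ccrl2. It was -3.25 in T166A and -2.56 in WT for Ccr2, and -4.27 in T166A and -3.38 in WT for Cx3cr1. In each of these the skin and BMDM libraries did not overlap, and the highest adjusted p was 1.59e-13 (edgeR). Such differences were the rule, with 82.2% of genes called in T166A (47.5% higher and 34.6% lower in skin) and 83.6% in WT (47.7% higher and 35.9% lower in skin). Other scalings moved the median of all genes, by 0.15 in T166A and 0.20 in WT with RLE size factors and by -0.72 in T166A and -0.65 in WT with each library's length trend removed, but no direction of these 4 genes.

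Skin over BMDM, Ccr3 had -0.40 in T166A (adjusted p = 0.0852, edgeR), which did not pass, and -0.71 in WT (adjusted p = 0.00415, edgeR). With the length trend removed it was lower in skin in both genotypes, at -1.34 in T166A (adjusted p = 5.36e-06, edgeR) and -1.67 in WT (adjusted p = 2.52e-07, edgeR), and the T166A value also passed without skin T166A replicate 4 (adjusted p = 0.0469, edgeR) or skin WT replicate 3 (adjusted p = 0.047, edgeR). The direction for Cxcr4 depended on the scaling. It stood at 0.17 in T166A (adjusted p = 0.0256, edgeR) and 0.08 in WT (adjusted p = 0.276, edgeR), and was called higher in skin in both genotypes with RLE size factors (0.32 in T166A, adjusted p = 0.000358; 0.28 in WT, adjusted p = 0.00111, edgeR) and with DESeq2 (adjusted p = 8.55e-06 in T166A and 8.79e-05 in WT). With the length trend removed it was called lower in skin in both, at -0.39 in T166A (adjusted p = 0.000157, edgeR) and -0.38 in WT (adjusted p = 0.000225, edgeR). The T166A call of Cxcr4 was lost without BMDM T166A replicate 2 (0.09, adjusted p = 0.285, edgeR) and without BMDM WT replicate 1 (0.15, adjusted p = 0.0528, edgeR). Ackr3 was close to absent from BMDM and present in wound cells: 10501 counts were summed over the 6 T166A skin libraries and 6326 over the 6 WT ones, against 8 over the 3 T166A BMDM libraries and 5 over the 3 WT ones. The pooled level was 49.8 CPM in T166A skin (exact 95% Poisson interval 48.8 to 50.7) and 31.2 CPM in WT skin (30.4 to 32.0). In BMDM the interval was 0.0269 to 0.123 CPM in T166A and 0.013 to 0.0934 CPM in WT, and all of these cover counting error only.

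**Figure D5:**
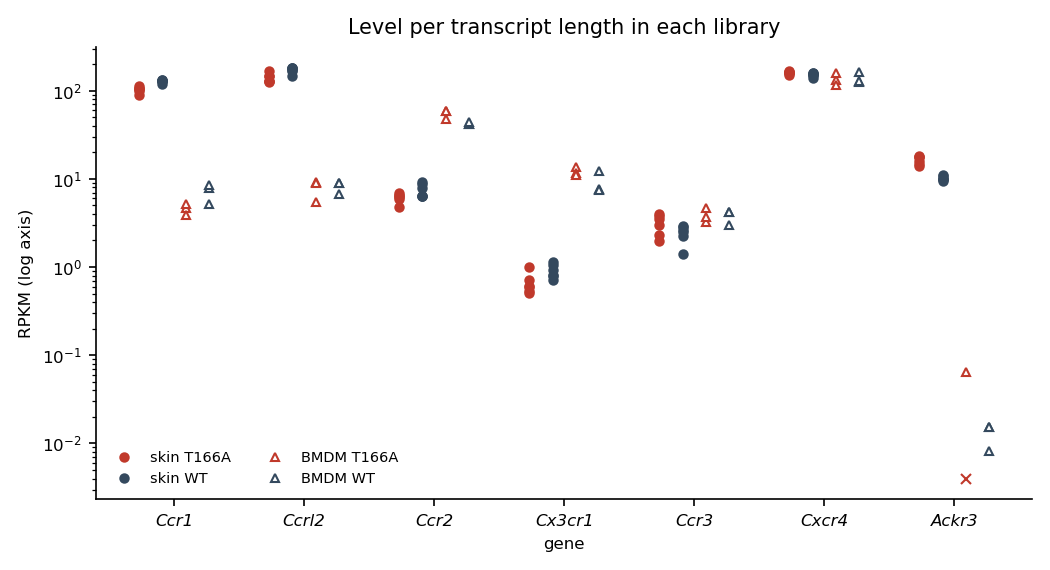
RPKM of each receptor in each library on a log axis; filled circles are skin wound cells (6 per genotype), open triangles BMDM (3 per genotype), and crosses at the bottom mark libraries with 0 counts. Cxcr4 lies at a like height in all 4 groups, Ccr1 and Ccrl2 are higher in skin, Ccr2 and Cx3cr1 higher in BMDM, and nearly all Ackr3 counts are in skin.

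The order of the levels per transcript length differed between sources. In T166A wound cells it ran Cxcr4 (159.9 RPKM), Ccrl2 (141), Ccr1 (102), Ackr3 (16.3), Ccr2 (6.11), Ccr3 (3.09) and Cx3cr1 (0.661). In WT wound cells Ccrl2 came first (172 RPKM), then Cxcr4 (152), Ccr1 (128), Ackr3 (10.2), Ccr2 (7.48), Ccr3 (2.43) and Cx3cr1 (0.904). The library ranges of Cxcr4 and Ccrl2 overlapped in both genotypes of skin, and all other neighbours were apart. In T166A BMDM the order ran Cxcr4 (136 RPKM), Ccr2 (55.2), Cx3cr1 (12.1), Ccrl2 (7.87), Ccr1 (4.57), Ccr3 (3.90) and Ackr3 (0.0214), with an overlap of Ccr1 and Ccr3. In WT BMDM it was the same, with Cxcr4 at 139 RPKM, Ccr2 at 42.5, Cx3cr1 at 9.11, Ccrl2 at 8.302, Ccr1 at 7.13 and Ccr3 at 3.81, and here the ranges of Cx3cr1, Ccrl2 and Ccr1 overlapped from one to the next. Cxcr4 made up 37.3 ± 1.88% of the summed RPKM of the 7 in T166A skin and 32.1 ± 1.43% in WT skin (SD, n = 6 each), and 61.6 ± 4.61% in T166A BMDM and 66.0 ± 4.37% in WT BMDM (SD, n = 3 each). Ccr1 stood at 16.8 ± 1.09 times Ccr2 in T166A skin and 17.6 ± 3.41 times in WT skin (SD, n = 6 each), and at 0.0838 ± 0.0162 times in T166A BMDM and 0.169 ± 0.0452 times in WT BMDM (SD, n = 3 each).

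Of the 16 ligand genes listed for these receptors, 4 rose, 6 fell and 6 did not pass the edgeR test in wound cells (median log2 fold change -0.11, against 0.01 for all genes). Among all genes tested there, 12.7% rose and 13.2% fell. Cx3cl1, the membrane-bound ligand of Cx3cr1, averaged 90.7 ± 9.61 CPM in T166A and 46.5 ± 6.26 CPM in WT (SD, n = 6 each; log2 fold change 0.88, adjusted p = 5.83e-08, edgeR), while its receptor fell. The Ccr3 ligand Ccl11 rose (0.66, adjusted p = 8.53e-06, edgeR), as did Ccl5, shared by several receptors (0.50, adjusted p = 0.000146, edgeR), and the Ackr3 ligand Cxcl11 (0.61, adjusted p = 0.0118, edgeR). The Ccr2 ligands fell with their receptor: Ccl7 averaged 1096 ± 119 CPM in T166A and 1523 ± 118 CPM in WT (-0.56, adjusted p = 1.03e-05, edgeR), Ccl2 had -0.28 (adjusted p = 0.00269, edgeR) and Ccl12 -0.55 (adjusted p = 0.00173, edgeR). Ccl3, Ccl4 and Ccl8 fell as well. Cxcl12, the ligand of Cxcr4 and Ackr3, did not pass (0.10, adjusted p = 0.565, edgeR).

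In BMDM 0 of 14 ligands tested were called by edgeR, 5 had an unadjusted p under 0.05, and DESeq2 and limma-voom called 1 each. An unadjusted p under 0.05 was reached by 1687 of all 13139 genes tested there. Ccl2 averaged 11.5 CPM in T166A and 27.3 CPM in WT (log2 fold change -1.28, adjusted p = 0.0556, edgeR). Ccl9 was the most abundant ligand in WT BMDM, with 871 CPM in T166A and 1077 CPM in WT (adjusted p = 0.314, edgeR).

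Among 26 other chemokine and chemoattractant receptors, 21 were tested in wound cells, of which 4 rose, 7 fell and 10 did not pass (median -0.19). The shares over all genes were 12.7% higher and 13.2% lower. Ackr1, an atypical chemokine-binding receptor of venules and red cells, averaged 186 ± 23.5 CPM in T166A and 73.4 ± 13.4 CPM in WT (SD, n = 6 each; log2 fold change 1.26, adjusted p = 6.57e-06, edgeR), beside the rise of Ackr3 and of the endothelial markers. The sphingosine phosphate receptor S1pr1 (0.46, adjusted p = 0.000159, edgeR), Ccr7 and Gpr1 also rose. The chemerin receptor Cmklr1, which signals from the ligand that Ccrl2 presents, fell like Ccrl2 (-0.62, SE 0.08, adjusted p = 2.53e-06, edgeR). Gpr1, which also binds chemerin, went the other way (1.03, adjusted p = 0.00507, edgeR), at a mean of 1.86 CPM in T166A and 0.852 CPM in WT. The chemerin gene Rarres2, one of the ligands listed, did not pass (-0.11, adjusted p = 0.306, edgeR). The complement receptors C3ar1 (-0.39), C5ar1 (-0.44) and C5ar2 (-0.58) fell too. In BMDM 0 of 19 were called by edgeR, DESeq2 or limma-voom, and 0 had an unadjusted p under 0.05.

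Of 36 genes tested that carry or end the receptors' signal, 18 fell, 4 rose and 14 did not pass in T166A wound cells (median -0.15). Over all genes tested in these cells, 13.2% fell and 12.7% rose. The exchange factor Vav1 averaged 164 ± 5.11 CPM in T166A and 216 ± 14.5 CPM in WT (SD, n = 6 each; -0.48, adjusted p = 8.36e-07, edgeR). The receptor kinase Grk2 fell (-0.27, adjusted p = 0.000144, edgeR) while Grk5, another kinase of the family, rose (0.52, adjusted p = 8.49e-07, edgeR). Among regulators that switch G proteins off, Rgs1 (-0.70), Rgs2 (-0.47), Rgs10 (-0.40) and Rgs18 (-0.65) fell and Rgs16 rose (0.52). The G protein subunit Gnai2 and the arrestins Arrb1 and Arrb2 did not pass. In BMDM 0 of 35 were called by edgeR, 3 had an unadjusted p under 0.05, DESeq2 called 2 and limma-voom 1. Of all 13139 genes tested in BMDM, 1687 had an unadjusted p under 0.05.

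Promoter sequence is shown for the 3 receptors with the smallest adjusted p in skin, since these members moved together or against each other. Each run is the 250 bases before the RefSeq start site on GRCm38.p6, 5′ to 3′ on the gene's strand, and capitals mark a match on either strand to TATAAA (known as the TATA box), GGGCGG (the GC box), GGANTTTCC (NF-kB site) or AGGTCA (the PPAR hexamer).
Ackr3, chr1:90203730-90203979, plus strand: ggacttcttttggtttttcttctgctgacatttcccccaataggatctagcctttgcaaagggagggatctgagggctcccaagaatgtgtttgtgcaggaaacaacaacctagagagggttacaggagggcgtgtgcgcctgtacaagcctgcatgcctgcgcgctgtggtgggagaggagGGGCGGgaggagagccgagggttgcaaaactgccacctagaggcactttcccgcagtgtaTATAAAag
Ccr1, chr9:123968693-123968942, minus strand: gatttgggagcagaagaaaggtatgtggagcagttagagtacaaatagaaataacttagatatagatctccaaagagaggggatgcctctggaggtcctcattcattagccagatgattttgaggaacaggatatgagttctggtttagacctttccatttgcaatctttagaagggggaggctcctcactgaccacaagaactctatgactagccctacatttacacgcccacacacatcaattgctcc
Ccrl2, chr9:111057519-111057768, minus strand: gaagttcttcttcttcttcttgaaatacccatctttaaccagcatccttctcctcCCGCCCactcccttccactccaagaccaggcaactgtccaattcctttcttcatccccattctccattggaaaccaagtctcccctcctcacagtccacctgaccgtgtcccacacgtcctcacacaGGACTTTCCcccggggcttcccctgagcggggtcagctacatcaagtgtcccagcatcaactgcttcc
RefSeq lists 3 start sites for Ccrl2, and the outermost is shown. Ackr3 held a GC box and a TATA box match, Ccrl2 a GC box and an NF-kB site, and Ccr1 no match. The TATA box match of Ackr3 began at position -8 from the start site, and those of Cxcr4 at -32 and -30. Of the receptors not printed, Cxcr4 held 3 GC boxes and a TATA box read on both strands with the matches overlapping, Ccr3 an NF-kB site, and Ccr2 and Cx3cr1 no match. The windows of Ccr3 and Ccr2 lay inside the listed gene spans. They began at 124021721 for Ccr3 and 124101933 for Ccr2, and the spans at 124017825 and 124101918. Among 32851 promoters of the same length, 32.7% held the GC box, 12.4% the TATA box, 1.07% the NF-kB site and 14% the PPAR hexamer. The PPAR hexamer was in none of the 7 windows. A match is a run of letters, and no binding was measured here.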

How the data were processed

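RNA sequencing libraries of T166A and WT BMDM (3 each) and skin wound cells (6 each) were analysed, grouped by the labels. The deposited values are whole-number counts per RefSeq transcript, not normalized. Per the submitters' processing notes, FastQC 0.12.1, cutadapt 4.4, HISAT2 2.2.1, featureCounts and the mm10 build were used, while no source used here gives the strand setting or the treatment of reads that match several places. The extraction text of the labels speaks of adipocytes, although every sample is labelled as macrophages.

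Each gene was read from its transcript with the highest summed CPM, since the deposited counts repeat shared exons in each isoform. Of the transcripts of each source 117 matched no gene and were left out (0.187% of counts in skin, 0.514% in BMDM). Lengths for RPKM came from GENCODE M21. Tests used edgeR 4.0.16 in R 4.3.3 (TMM, minimum count 10, minimum total 15, robust quasi-likelihood F test, Benjamini-Hochberg over all genes tested, threshold 0.05), with batch as a term in BMDM, and 1 fit over all 18 libraries for differences between sources. The standard error was taken from the log2 fold change and its F statistic. The procedure was tested on simulated data with genotype changes larger than those of the receptors. That test does not show how well changes of the receptors' size are found. Same-numbered BMDM libraries of both genotypes, which share a batch, deviated together (correlation 0.20, 0.12 and 0.19), and skin libraries did not (-0.045 to 0.09). No 2 libraries were duplicates.

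The receptors, the lists of ligands, receptors, signalling partners and cell markers, and the naming rule were chosen with earlier results of these data known. From each list the rule named the genes with the smallest adjusted p in skin and in BMDM and the most abundant ones, and Ccr1l1 and the list members named beside them were chosen after their values were seen. Alternatives were other scalings, filters and transcripts, DESeq2 1.42.0, limma-voom 3.58.1, a replicate block, batch terms, length trends, marker scores and leaving out each library. Library totals alone and the macrophage and endothelial scores were added after seeing the data.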

Additional observations from a re-analysis of the deposited data

Results flagged for a closer look

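Ccr1 in WT skin replicate 1 lay at 334.8 CPM, apart from the other 5 WT libraries, whose lowest value was 362.7 CPM, and this gap was large for a group of 6. Chance flags about 1 in 20 groups in this way, and 14 groups were examined. The T166A libraries were all lower, and without this WT library Ccr1 kept its call.

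The genotype effect in skin minus that in BMDM was -0.69 (log2) for Ccr2 and -0.90 (log2) for Cx3cr1, and both passed the edgeR test of the difference itself.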

How the results depend on the processing

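In skin, Ccr1 kept its direction and its call in each alternative run, and Ackr3 its direction. Ackr3 lost its call with the macrophage or the endothelial score, Ccr2, Ccrl2 and Cx3cr1 with several marker scores, and Cx3cr1 in 6 of 12 fits without 1 library. Genes called higher and lower numbered 436 and 600 with fibroblast and endothelial scores, 335 and 385 with the macrophage score, 355 and 663 with the endothelial score, 749 and 561 with the monocyte score, and 3357 and 1308 with library totals alone. Receptors called higher numbered 0 with the macrophage or the endothelial score, and those called lower 1 with the macrophage, endothelial or combined scores and 2 with the monocyte score. Log2 fold changes that turned sign were 0.25 (fibroblast and endothelial scores), 0.13 (macrophage) and 0.066 (endothelial) for Ccr2, -0.29 (monocyte) and -0.061 (eosinophil and mast cell) for Ccr3, and 0.069, 0.033, 0.055 and 0.075 for Cxcr4 with fibroblast and endothelial, macrophage and endothelial scores and library totals. Leaving out 1 library gave -0.040 to 0.0061 for Cxcr4.

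In BMDM, where few calls were made, genes called higher and lower numbered 84 and 21 without a filter, 13 and 2 with a minimum count of 50, 253 and 147 with DESeq2 (1 receptor, Ccr1, lower), 113 and 19 with limma-voom, 14 and 3 with the length trend removed, 0 and 0 with transcripts summed, 0 and 0 without the batch term, and 21 and 0 in batch B1 alone. RLE size factors gave 2 genes lower. Without 1 library the counts ran from 0 to 18 higher and from 0 to 8 lower. Signs turned for Ccr3 with limma-voom (0.12) and library totals (0.025), for Cxcr4 with the length trend removed (0.046) and for Ccrl2 in B1 alone (0.009). Without 1 library Ccr3 ran from -0.14 to 0.15 and Ccrl2 from -0.19 to 0.011. With the replicate block, which pairs same-numbered cultures, 2 genes were lower and Ccr3 stood at 0.0016, and with the length trend removed as well 15 genes were higher, 3 lower and Cxcr4 stood at 0.043. The replicate block changed no receptor's call in either source.

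For the difference between sources, the length trend removed left 657 genes higher and 792 lower and turned Cxcr4 to -0.013. Without 1 library, 655 to 1870 genes were higher, 0 to 2 receptors higher and 1 to 2 lower, and Ackr3, near 0 in BMDM, ran from -0.44 to 4.55. For skin over BMDM, the length trend removed turned Cxcr4 to -0.39 in T166A and -0.38 in WT, and left 5207 genes higher and 8717 lower and 4 receptors lower in T166A. The causes were not tested. Depth limits Ackr3 in BMDM, with 0 to 8 counts per library.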
